A study of Haplochromis burtoni and Eretmodus cyanostictus and Lepidiolamprologus attenuatus with 30 samples.

Results

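The comparison described here sets the posterior end of the intestine against its anterior end in 6 cichlid fish of 3 species. It uses 12 of the 30 libraries of the series. Each intestine had been cut across its length into 5 pieces of equal length, and those numbered 5 (posterior) and 1 (anterior) were taken by the section number in the names of the count table's columns. Each section 5 was paired with section 1 of the same fish, and all 6 pairs entered a single fit, so that the subject is the change the fish had in common. The 6 groups were section 5 and section 1 of Haplochromis burtoni (fish 1 and 2), of Eretmodus cyanostictus (fish 3 and 4) and of Lepidiolamprologus attenuatus (fish 6 and 7), with 2 fish in each. The labels give no strain, sex, age, diet or treatment. Sections were set by length, so the same number need not be the same anatomical region in each species.

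The intestine of teleost fishes is regionalised along its length. Its anterior part takes up most digested fat, sugar and peptides, more posterior enterocytes take up whole proteins by endocytosis, and the hind part handles water and ions. Neighbouring regions differ in the transporters, enzymes and position-specific transcription factors that their epithelium makes. The count table identifies genes by number without names, so the tissue could not be checked against marker genes, and no gene below is given a name or a role. Sections of a gut may differ because cells of a type are fewer or because each cell holds less of an RNA, and bulk libraries cannot tell these apart.

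Gene counts per library ranged from 6726018 to 10542369 in section 5 and from 7566210 to 9686203 in section 1. Section 1 of fish 4 stood apart from the other anterior libraries. Its log2 levels correlated across 21419 genes with those of fish 3, of the same species, at Pearson's r = 0.847, against 0.954 between the section 1 libraries of H. burtoni and 0.953 between those of L. attenuatus. The main counts and means are also given without fish 4. All values in CPM, counts scaled to library size, are also scaled for composition.

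Expression differed between the ends at 2266 of 21419 genes tested (10.6%) in the fit of all 6 fish (edgeR quasi-likelihood test with the fish as block, Benjamini-Hochberg adjusted p under 0.05). In section 5, 1264 genes (5.9%) were higher and 1002 (4.68%) were lower than in section 1. At the stricter threshold of 0.01, 842 genes (3.93%) differed. Without fish 4, 2607 of 20935 genes were called (12.5%), 1295 higher and 1312 lower. Leaving out fish 1, fish 2 or fish 7 lowered the count by more than 1.5 times, to 1153, 1335 and 1355. The balance of directions depended on the scaling. With library totals alone 2719 genes were higher and 719 lower, and the median change of all genes was 0.25 on the log2 scale, against -0.01 with composition scaling.

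The size of the change varied widely among the called genes. Its median was 1.45 on the log2 scale for genes higher in section 5 and -1.50 for genes lower there, against a median absolute change of 0.35 over all genes tested. The middle 80% of the higher genes lay between 0.74 and 4.48, and that of the lower genes between -0.79 and -4.74. A change of at least 2-fold was fitted at 911 of the higher and 765 of the lower genes, at least 8-fold at 249 and 212, at least 32-fold at 106 and 88, and at least 256-fold at 38 and 25. Among the called genes, 590 changed by less than 2-fold, and 1390 genes with a fitted change of at least 2-fold were not called. Libraries with 3 counts or fewer at 1 end make a fitted fold imprecise, and 66 of the higher and 21 of the lower genes had no more than 3 counts in all 6 libraries of the lower end. Setting these to the smallest fold that 3 counts per library allow left the medians at 1.43 and -1.50. Without fish 4 the medians of the genes then called were 1.43 and -1.36.

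**Figure D1:**
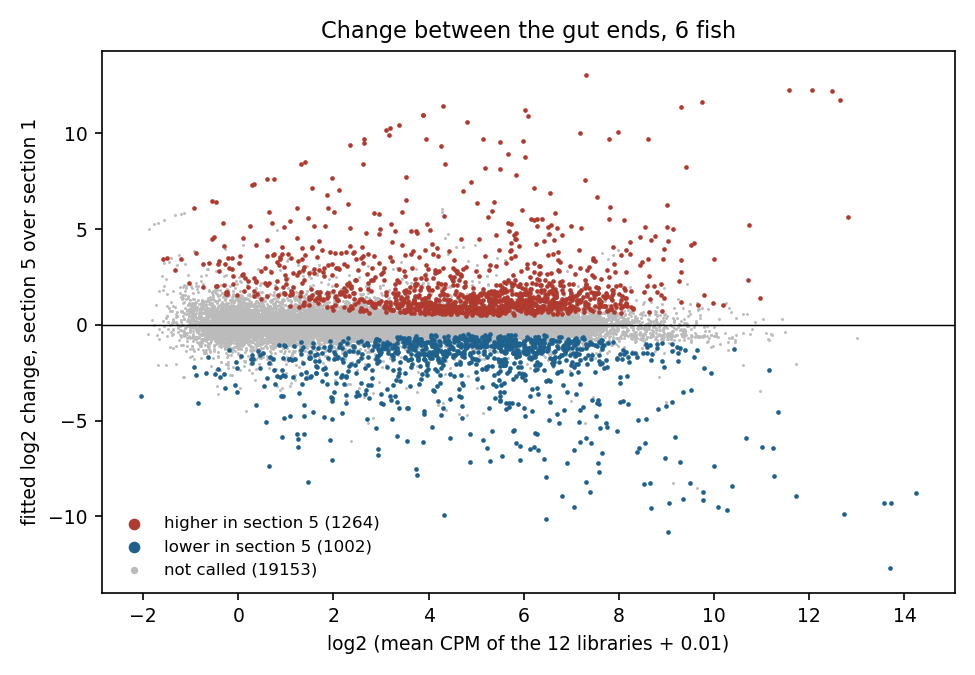
Fitted log2 change of section 5 over section 1 for each of 21419 genes against the log2 of its mean CPM, with genes called at an adjusted p under 0.05 in colour. The 1264 higher and 1002 lower genes span a wide range of levels, with 35 higher and 16 lower genes at a mean below 1 CPM. Changes beyond 8-fold occurred in both directions.

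Few genes with a mean of at least 20 CPM at 1 end had no more than 3 counts in every library of the other. With a mean of at least 20 CPM in section 5 and no more than 3 counts in every section 1 library, 14 genes were found. All 14 were among the 1264 higher genes, which their choice by the same libraries makes likely. They reached at most 315 CPM and were at least 57.8-fold to at least 875-fold higher in section 5, taking 3 counts per library as the floor. In the other direction 2 genes qualified, with 20 CPM or more in section 1 and at the floor in section 5, and these were at least 74.6-fold and at least 111-fold lower in section 5. Without the limit of 20 CPM, 66 of the higher and 21 of the lower genes were at this floor in all 6 libraries of the lower end. More than 3 counts in a single library of the lower end exclude a gene from the rule. A fitted change of at least 256-fold was found at 38 of the higher and 25 of the lower genes. Most genes that changed thus had more than 3 counts in at least 1 library of the lower end.

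Abundant genes were called more often than scarce ones. Of 69 genes with a mean above 1000 CPM over the 12 libraries, 40.6% were called, and of 1945 genes between 100 and 1000 CPM, 21.6%. The share was 13.7% of 9396 genes between 10 and 100 CPM, 5.66% of 8392 genes between 1 and 10 CPM, and 3.15% of 1617 genes below 1 CPM. Without fish 4 the shares were 47.1%, 27.5%, 16.5%, 5.99% and 2.96%, from the highest class to the lowest. A higher count makes a change easier to detect, and what part that has in these shares was not tested. Of the 10 genes with the highest mean in section 5, 8 were called higher there and none (0) lower. Likewise, 8 of the 10 highest in section 1 were called lower in section 5 and 0 higher. Picking genes by their level at 1 end favours those higher at that end, so this tilt is partly built in. Over all genes tested, 5.9% were called higher and 4.68% lower in section 5. A single gene (1) belonged to both sets of 10, and 15 genes to both sets of the 50 highest.

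The changed genes filled a large part of each library at the end where they were high. The 1264 genes higher in section 5 took 20.2% and 22.8% of gene counts in section 5 of H. burtoni fish 1 and 2, against 4.05% and 4.02% in section 1. They took 15.9% and 17.3% in section 5 of E. cyanostictus fish 3 and 4, against 4.37% and 4.36% in section 1. For L. attenuatus fish 6 and 7 the shares were 26.3% and 25.0% in section 5 and 3.16% and 3.52% in section 1. No section 5 library overlapped any section 1 library, which the choice of these genes by the same contrast makes likely. Between 25 genes (fish 6) and 88 genes (fish 3) made up 50% of these counts in section 5, and between 107 and 135 genes in section 1.

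The 1002 genes lower in section 5 varied more between fish in their section 1 share, which rested on few genes in 5 fish. They took 2.90% and 2.86% of gene counts in section 5 of H. burtoni fish 1 and 2, against 27.5% and 19.3% in section 1. In E. cyanostictus fish 3 and 4 they took 4.51% and 2.92% in section 5, against 24.9% and 8.07% in section 1. In L. attenuatus fish 6 and 7 the shares were 3.58% and 4.10% in section 5 and 34.0% and 32.6% in section 1. Fish 4 therefore had by far the smallest anterior share, while its share in section 5 was close to that of H. burtoni. In section 1, 6 to 10 genes made up 50% of these counts in the other 5 fish, against 46 genes in fish 4. Section 5 needed 75 to 95 genes for the same fraction.

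**Figure D2:**
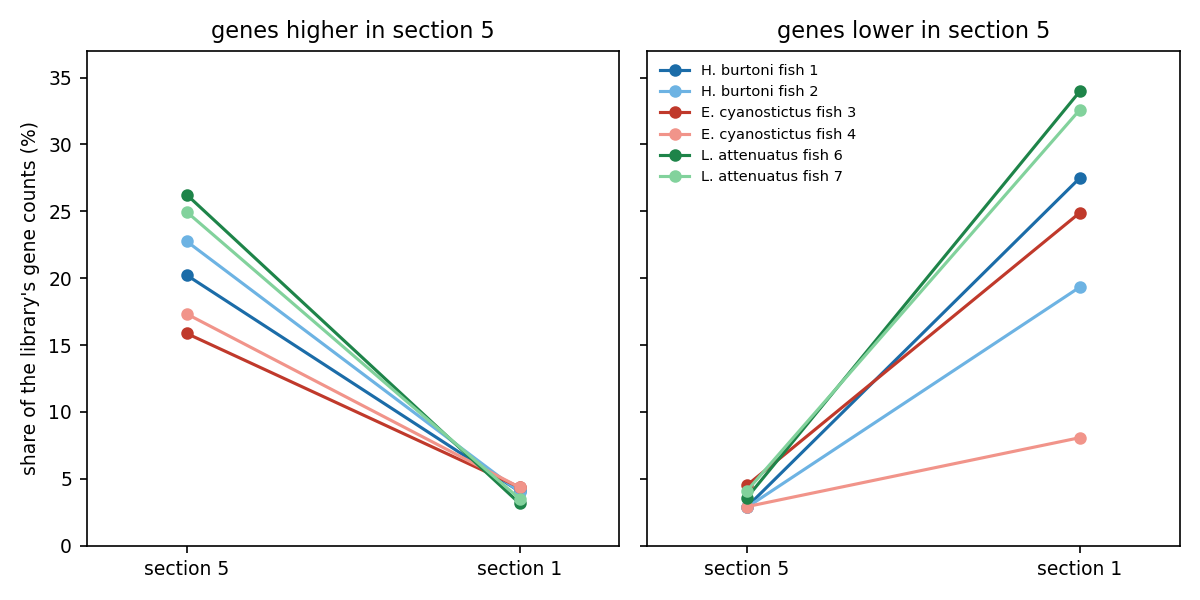
Share of each library's gene counts, in percent, on the 1264 genes higher (left) and the 1002 genes lower (right) in section 5, with a line joining both ends of each fish. On the right, fish 4 reached 8.07% in section 1, below the 19.3% to 34.0% of the other 5 fish.

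Measures of whole libraries, which used no gene calls, were compared between the ends, and none (0) of 6 passed an adjusted p of 0.05. The 10 most abundant genes of a library took 7.85% ± 2.76 of gene counts in section 5 and 14.6% ± 5.78 in section 1 (SD, n = 6 each), and their share was lower in section 5 of 6 of 6 fish (exact paired permutation test, two-sided, p = 0.0312, adjusted p = 0.0625 over 6 measures). More than 3 counts were found on 21576 ± 660 genes in section 5 and 20856 ± 590 genes in section 1 (SD, n = 6 each), with section 5 higher in 6 of 6 fish (exact p = 0.0312, adjusted 0.0625). The effective number of genes, a diversity measure from Shannon's entropy, was 4877 ± 781 in section 5 and 3237 ± 1381 in section 1, again higher in section 5 of 6 of 6 fish (exact p = 0.0312, adjusted 0.0625). This p is the smallest that 6 pairs can give, and after adjustment it passes 0.05 only where most of the 6 measures reach it. Without fish 4 the share of the 10 most abundant genes was 8.37% ± 2.73 in section 5 and 16.2% ± 4.65 in section 1, and the effective number of genes 4703 ± 731 in section 5 and 2812 ± 1013 in section 1 (SD, n = 5 each; exact p = 0.0625 for both, the smallest that 5 pairs can give). Counts on genes were 8522600 ± 1313200 in section 5 and 8533000 ± 893950 in section 1 (SD, n = 6 each, exact p = 0.938, adjusted 0.938). Reads outside counted gene sequence made up 8.36% ± 0.823 in section 5 and 7.42% ± 1.49 in section 1 (SD, n = 6 each, exact p = 0.219, adjusted 0.263). Fish 4 alone was lower in section 5 by this measure, with 8.24% in section 5 and 10.3% in section 1, and without it the means were 8.38% ± 0.917 in section 5 and 6.85% ± 0.587 in section 1 (SD, n = 5 each).

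Single gene IDs are shown for the most regular changes: the smallest p among called genes that moved the same way in all 6 fish, averaged at least 20 CPM at the higher end and had at least 10 counts in each of the 12 libraries. These criteria were met by 749 higher and 539 lower genes, and they favour precise changes over large ones. Gene ID 102082895 had 402 and 431 CPM in section 5 of H. burtoni fish 1 and 2, against 6.86 and 6.72 CPM in section 1. In E. cyanostictus fish 3 and 4 it had 391 and 306 CPM in section 5, against 5.37 and 5.30 CPM in section 1, and in L. attenuatus fish 6 and 7 656 and 472 CPM in section 5, against 8.17 and 4.72 CPM in section 1. The ends did not overlap, and the 6 changes lay close together, from 5.79 to 6.58 on the log2 scale. The fitted log2 change was 6.14 (SE 0.22, edgeR adjusted p = 1.28e-05) and, like those of the IDs that follow, describes a gene picked for a small p and for moving the same way in all 6 fish. Along the gut, gene ID 102082895 rose most between sections 3 and 4 in 5 fish. In fish 4 its log2 CPM was 2.3, 5.6 and 8.6 in sections 2, 3 and 4, a rise spread over both intervals. From section 4 to section 5 its log2 CPM still rose from 6.4 to 8.8 in fish 2, 7.8 to 9.4 in fish 6 and 7.8 to 8.9 in fish 7. In section 3 it was still at 6.53 to 11.1 CPM in 5 fish and at 49.7 CPM in fish 4, and in section 4 it was at 85.8 CPM in fish 2 and at 216 to 394 CPM in the other 5.

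Gene ID 100693193 changed more but elsewhere along the gut. Section 5 of H. burtoni fish 1 and 2 held 1160 and 1520 CPM, against 5.54 and 3.30 CPM in section 1. Values in E. cyanostictus fish 3 and 4 were 1630 and 1400 CPM in section 5, against 6.05 and 7.49 CPM in section 1, and in L. attenuatus fish 6 and 7 they were 1370 and 1090 CPM in section 5, against 2.51 and 3.67 CPM in section 1. All 6 fish thus reached a similar posterior level, with 1363 CPM ± 207 in section 5 and 4.76 CPM ± 1.90 in section 1 (SD, n = 6 each). The fitted log2 change was 8.22 (SE 0.36, edgeR adjusted p = 2.71e-05), and single fish ranged from 7.50 to 8.96. By section 3 it stood at 722 to 2210 CPM in all 6 fish. Section 2 was the point where fish differed, from 8.28 CPM in fish 7 to 1350 CPM in fish 1.

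Gene ID 100709595 was lower in section 5. It had 6.18 and 5.48 CPM in section 5 of H. burtoni fish 1 and 2, against 76.6 and 62.5 CPM in section 1. It had 10.9 and 2.99 CPM in section 5 of E. cyanostictus fish 3 and 4, against 103 and 22.0 CPM in section 1, and 10.2 and 7.15 CPM in section 5 of L. attenuatus fish 6 and 7, against 124 and 116 CPM in section 1. Fish 4 had the lowest level of the 6 fish at both ends, and its change of -2.79 on the log2 scale was the smallest, while the largest was -3.97 in fish 7. The fitted log2 change was -3.48 (SE 0.19, edgeR adjusted p = 5.33e-05). In sections 2, 3 and 4 it stood at 50.6, 28.9 and 8.20 CPM in fish 1, at 47.6, 46.0 and 17.0 CPM in fish 2 and at 73.8, 39.4 and 9.58 CPM in fish 3. Fish 4 had 23.4, 7.95 and 2.69 CPM in these sections, fish 6 72.5, 43.1 and 20.1 CPM, and fish 7 80.3, 43.3 and 23.1 CPM. In each fish section 4 was thus below section 3, and in fish 3 and 4 section 4 was already as low as section 5.

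Gene ID 100706024 had the narrowest spread of the 4. Section 5 of H. burtoni fish 1 and 2 was at 5.57 and 2.63 CPM, against 31.5 and 17.3 CPM in section 1. Section 5 of E. cyanostictus fish 3 and 4 was at 5.39 and 1.13 CPM, against 40.6 and 7.61 CPM in section 1, and that of L. attenuatus fish 6 and 7 at 8.08 and 9.65 CPM, against 47.9 and 49.2 CPM in section 1. The ranges of the ends overlapped between fish, since section 1 of fish 4 lay below section 5 of fish 6 and 7, but within each fish section 5 was lower. The 6 changes lay between -2.86 and -2.32 on the log2 scale (mean -2.55 ± 0.18, SD, n = 6), and the fitted value was -2.62 (SE 0.15, edgeR adjusted p = 7.46e-05). In fish 2 the level was highest in the middle, with 29.1, 42.5 and 13.5 CPM in sections 2, 3 and 4. Fish 4 was highest in section 2, with 10.6 CPM against 7.59 CPM in section 1 (scaled over all 30 libraries).

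**Figure D3:**
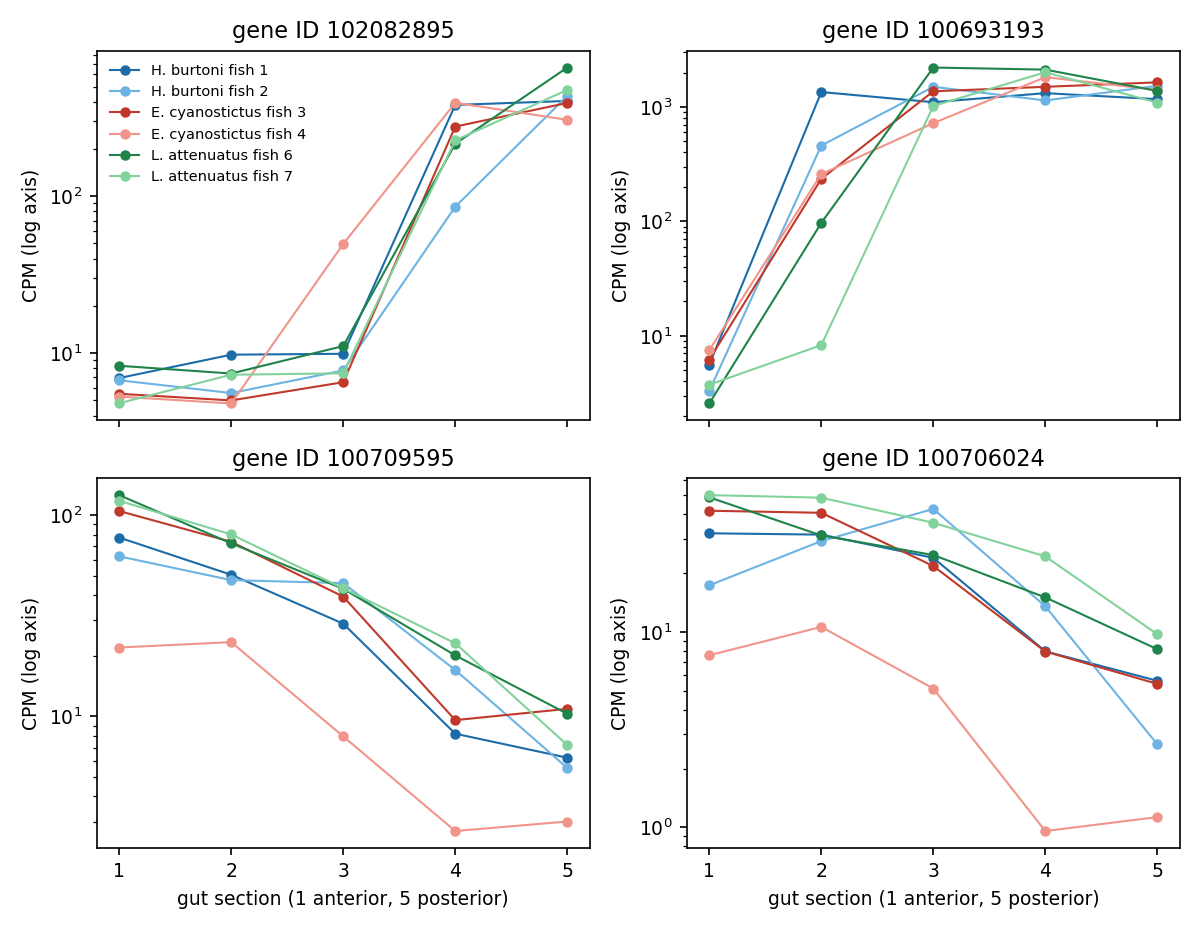
CPM on a log axis of the 4 gene IDs in each of the 5 sections, 1 line per fish, scaled over all 30 libraries. Gene ID 102082895 rose most between sections 3 and 4 in 5 of 6 fish, and 100693193 had reached 722 CPM or more by section 3. Both IDs in the lower panels were lower in section 4 than in section 3 of every fish.

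How far the 6 fish followed the common change was examined in each fish. Of the 2266 called genes, 2042 (90.1%) moved the same way in all 6 fish, 192 in 5 fish and 32 in fewer. The same 6 fish made the calls, which favour genes on which the fish agree, so this share is partly built in. Over all 21419 genes tested, 3896 (18.2%) moved the same way in all fish, and 52.4% of these were called. In the fit without fish 4, 96.3% of called genes and 26.9% of tested genes moved the same way in the 5 fish. In the fit of all 6 fish, 1854 genes moved the same way in every fish but were not called, with a median absolute log2 change of 0.55. A change of at least 2-fold in each of the 6 fish was found at 298 of the higher and 229 of the lower genes. By fish, the median log2 change of the higher genes ran from 1.07 in fish 3 to 1.55 in fish 2. For the lower genes it ran from -0.86 in fish 4 to -1.70 in fish 6, with the other 4 fish between -1.34 and -1.59. The median spread between fish in the change of a called gene was 0.65 on the log2 scale (SD, n = 6), close to the 0.62 of genes not called.

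Because these genes were called from the same fish, the fit was repeated with each fish left out and the genes called were then read in that fish. The other fish of the same species stayed in each fit, so these readings do not separate agreement within a species from agreement across species. Without fish 1 the other 5 called 1153 genes (5.46% of those tested), and 97.1% of them moved the same way in fish 1, against 67.8% of the genes not called. Without fish 2 the fit called 1335 genes (6.33%), of which 96.1% moved the same way in fish 2, against 62.7%. Without fish 3 it called 1667 (7.9%), with 90.6% the same way in fish 3, against 59.1%. Fish 6 and fish 7 followed 93.2% of 1511 genes (7.14%) and 94.8% of 1355 genes (6.45%), against 60.2% and 62.0% of genes not called. Fish 4 followed least. Of the 2607 genes that the other 5 fish called (12.5%), 77.4% moved the same way in fish 4, against 54.8% of genes not called. This share was not split by direction. The median log2 change in fish 4 was -0.34 for the genes lower in section 5 and 1.05 for the higher genes. In the other 5 fish the left-out medians were between -1.59 and -2.18 for the lower genes and between 1.02 and 1.80 for the higher genes. The gene sets also differed between the fits. Along the direction of the fit, the median fitted change of the called genes was 1.40 without fish 4, against 1.74 to 2.04 in the other 5 fits. What part this has in the difference was not tested.

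Leaving out a whole species asked whether the change found in 2 species was present in the third. The 4 fish of E. cyanostictus and L. attenuatus called 556 of 20776 genes tested. Of the 556, 95.1% moved the same way in the mean of the H. burtoni fish. Their median change there was 2.46 along the direction of the fit, against 2.95 in the fit itself. The fish of H. burtoni and L. attenuatus called 1977 genes (9.71% of those tested). Of these, 90.2% moved the same way in E. cyanostictus, with a median change of 0.93 against 1.72 in the fit. The fish of H. burtoni and E. cyanostictus called 1134 genes (5.5%), of which 89.1% moved the same way in L. attenuatus, with a median change of 1.66 against 2.18 in the fit. Genes not called moved the same way in 62.7%, 63.3% and 57.8% of cases in this order. In each species, then, the direction was shared more often by genes called elsewhere than by other genes. The median change was smaller than in the fit that chose the genes, but choosing genes by a fit favours larger changes in that fit. The values also differ in measure, a fitted change against a difference of log2 CPM with a prior count of 2. Whether the change was weaker in the species left out was not tested.

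**Figure D4:**
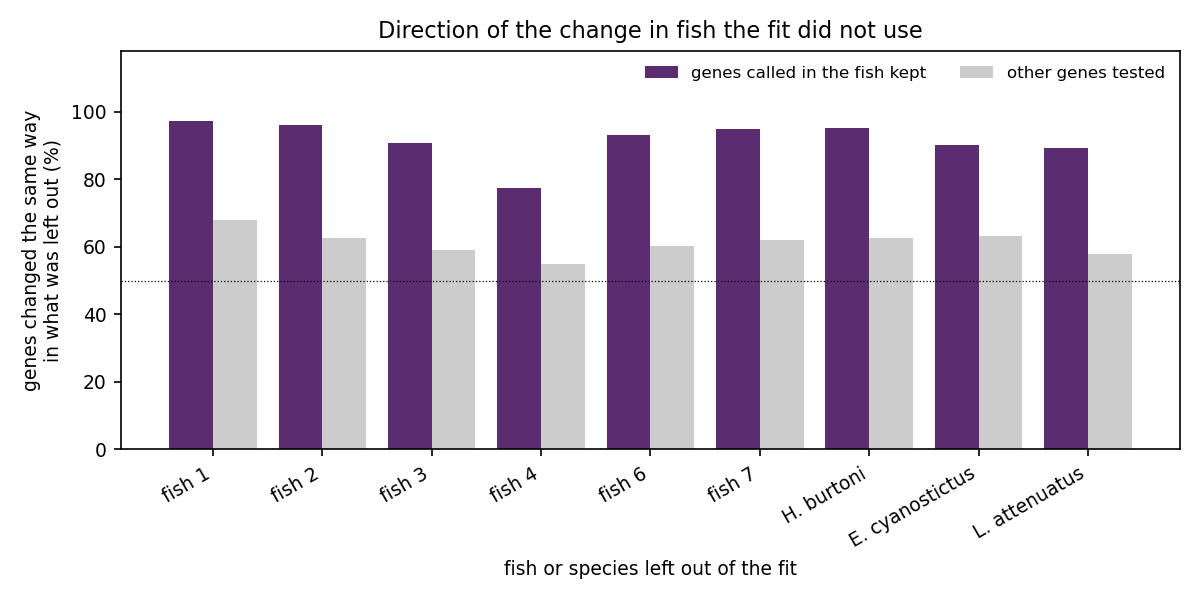
Percentage of genes that changed in a left-out fish, or in the mean of a left-out species, in the direction fitted without it, for genes called in the remaining fish (purple) and for all other genes tested (grey). Called genes reached 77.4% in fish 4 and 89.1% or more elsewhere.

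Across all 21419 genes, the changes of fish 1 and 2 correlated with Pearson's r = 0.796, those of fish 3 and 4 with 0.425 and those of fish 6 and 7 with 0.802. These are descriptions across genes, which are not independent, and the fish share no library. Between fish of different species r ran from 0.280 (fish 4 and 7) to 0.578 (fish 2 and 4), and the changes of fish 3 correlated more with those of fish 1 (0.540) and fish 6 (0.542) than with those of fish 4. Levels of the posterior end were more uniform. In section 5, log2 levels of fish of different species correlated with r from 0.841 to 0.874, and in section 1 from 0.735 to 0.879, or from 0.792 without fish 4. Every section 1 value under 0.8 involved fish 4 or the pair of fish 2 and 6 (0.792).

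A change that differed between the species was tested directly, as a section-by-species term in the same fit. It was called at 106 of 21419 genes (0.495%, edgeR quasi-likelihood F-test, adjusted p under 0.05), and 3362 genes (15.7%) had an unadjusted p under 0.05. The count moved to 1209 with DESeq2's likelihood ratio test, 323 with no filter on low counts and 65 without the fish block. Of the 106 genes, 20 (18.9%) were also among the 2266 genes of the common change, to which 10.6% of all genes tested belonged. These 20 are 0.883% of the common change. An unadjusted p under 0.05 in this F-test was found at 493 of the 2266 genes (21.8%), against 15.7% of all genes tested. In 36 of the 106 the species means had the same sign, so that the size differed and not the sign, while in 33 L. attenuatus was opposite to both other species. H. burtoni was opposite in 22 and E. cyanostictus in 15. This test had 3 residual degrees of freedom, and its count moved widely, up or down, with the fish left out. Leaving out a fish leaves its species with 1 pair. Such a fit cannot measure the spread within that species. Its counts are therefore given only among the processing alternatives, and no conclusion is drawn from them. A low count in this test does not show that the species changed alike.

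The libraries of the sections between, which the comparison of the ends did not use, were then read for the same genes. Section 4 over section 2, fitted in the same 6 fish with the fish as block, differed at 1708 of 21239 genes (8.04%), 993 higher and 715 lower in section 4. Of the 2266 genes of the common change, 1289 were called in this test, and all of these 1289 in the same direction. They make up 56.9% of the genes called between the ends and 75.5% of those called between sections 4 and 2. The sign of the change was shared at 99.6% of the 2234 genes tested in both, against 79.9% of genes not called between the ends. The median log2 change of section 4 over section 2 was 1.04 (genes higher in section 5) and -0.99 (genes lower in section 5), and -0.01 over all genes tested. The fish are the same, so this repeats the comparison in other tissue and not in other animals.

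Most of the change between the ends fell behind the middle of the gut. For each fish, called genes that moved 2-fold or more in the common direction were followed, and the level in each section was expressed as a percentage of the log2 change between section 1 (0%) and section 5 (100%). Genes higher in section 5 had reached 5.90% ± 5.71 of their change in section 2, 25.0% ± 19.4 in section 3 and 84.6% ± 21.4 in section 4 (mean of the medians of 6 fish, SD). Genes lower in section 5 had reached 7.91% ± 6.13, 32.9% ± 22.1 and 79.5% ± 22.4 in these sections. Without fish 4 the means were 3.74%, 17.5% and 79.9% for the higher genes and 7.48%, 28.2% and 75.3% for the lower genes (n = 5). These are medians of genes, and single genes were less orderly. The share of genes with all of sections 2 to 4 between their end levels ran from 22.8% (lower genes, fish 4) to 64.6% (lower genes, fish 6). The fish placed the change differently. Fish 2 of H. burtoni was the latest, with 54.5% (higher genes) and 42.6% (lower genes) in section 4, whereas fish 1 of the same species was at 100% and 89.4%. Fish 4 was the earliest for the higher genes, with 62.8% in section 3, against 9.97% to 24.7% in the others. Both E. cyanostictus fish had 52.3% or more of the decline behind them in section 3 and had completed it in section 4.

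The largest single step of a gene was most often from section 3 to section 4. In fish 1, 3, 4, 6 and 7 it lay there for 42.0% to 75.0% of the higher genes and for 44.7% to 57.3% of the lower genes. In fish 2 the step from section 4 to section 5 was the most frequent, at 48.9% and 51.1%. Shares of counts, which the most abundant genes dominate, placed the decline further forward in some fish. The share of genes higher in section 5 gained most from section 3 to section 4 in fish 1, 3, 4 and 7 (8.63 to 14.7 percentage points) and from section 4 to section 5 in fish 2 (12.3) and fish 6 (11.3). The share of genes lower in section 5 lost most from section 2 to section 3 in fish 1, 3, 4 and 6 (10.7 to 12.8 percentage points in fish 1, 3 and 6) and from section 3 to section 4 in fish 2 (14.1) and fish 7 (13.4). In fish 4 this share was 8.07%, 9.99%, 5.49%, 2.93% and 2.92% in sections 1 to 5, so that it was highest in section 2. Because sections are defined by length, a boundary that lies slightly further back in 1 fish can appear as a different section, and this was not tested.

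**Figure D5:**
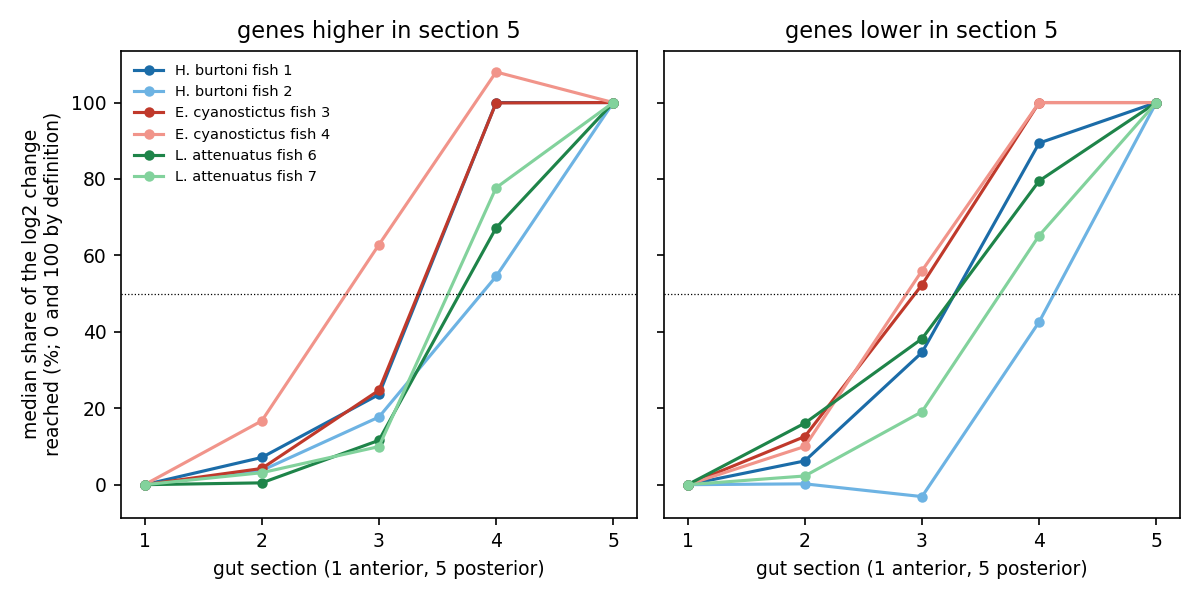
Median percentage of the log2 change between the ends reached in each section, for genes higher (left) and lower (right) in section 5 that moved 2-fold or more in the fish shown, 1 line per fish. The steepest rise lay between sections 3 and 4 in most fish, and fish 2 was at 54.5% and 42.6% in section 4.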

How the data were processed

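The authors deposited raw counts per gene, whole numbers with 1 column per library (30 columns, 38425 gene rows and 5 special rows of the htseq-count program). Trimmomatic, STAR and HTSeq are named, without versions, in the submitters' processing notes; the genome build, annotation and strand setting are not given in the sources used here. Libraries were made from total RNA by the Illumina TruSeq procedure, per the labels' protocols. The special rows were left out; reads outside counted genes were 6.27% to 10.3% and ambiguous reads 2.65% to 3.41% of the counts in the 12 libraries. Genes that overlap, lie antisense or are near-identical copies could not be separated.

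None of the gene IDs (0) matched the 28690 genes of a RefSeq table of H. burtoni (assembly NCSU_Asbu1), so 16 lists of intestinal and other cell type genes were not tested and no sequence is shown.

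For E. cyanostictus and L. attenuatus the columns carry fish numbers (3, 4, 6 and 7) that the labels do not use, so species and section come from the column name and pairs from its fish number. Within species, the difference between the fish at section 5 correlated with that at section 1 across genes (0.314 in H. burtoni, 0.464 in E. cyanostictus, 0.409 in L. attenuatus).

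Counts of the 12 libraries were filtered by filterByExpr, scaled by TMM and fitted with fish and section as terms in edgeR 4.0.16 under R 4.3.3 (robust quasi-likelihood F-test, 5 residual degrees of freedom, Benjamini-Hochberg adjustment over all genes tested). Standard errors are the log2 change divided by the root of F. Changes of single fish are differences of log2 CPM with a prior count of 2. Levels in sections 2 to 4 were scaled over all 30 libraries. The script was tested on simulated counts. DESeq2 1.42.0, other scalings, filters and thresholds, and leaving out fish or species were tried. The comparison, its lists and tests were chosen with earlier results of these data known; the left-out readings, the fit of section 4 over section 2, the measures of whole libraries and most values without fish 4 were chosen after seeing the data. The rule for single IDs is given where they are described.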

Additional observations from a re-analysis of the deposited data

Results flagged for a closer look

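In fish 4, 95.3% of the 2266 called genes moved in the common direction. The other 5 fish lay between 98.0% and 99.3%, and the gap to the nearest of them was 0.675 of the whole range, more than Dixon's test for a single outlying value allows. Of 23 sets of 6 values examined in this way 1 was singled out, where chance gives 1.15. In section 1 the same fish had 8.07% of gene counts on the genes lower in section 5, 10.3% of reads outside counted genes, the highest of the 12 libraries, and 6.42% of counts on its 10 most abundant genes, the lowest of the section 1 libraries. What these values have to do with each other was not tested.

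The change between the ends differed between species at 106 genes by a direct test of the difference (edgeR, adjusted p under 0.05). This count moved widely, up or down, when a single fish was left out, which leaves its species with 1 pair.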

How the results depend on the processing

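The count of 2266 genes stayed within 1.5 times under RLE size factors, no filter, a stricter filter and without E. cyanostictus. Without the fish block the fit called 2435 genes, 1996 of them among the 2266, and for the species difference 65 in place of 106. DESeq2 called 3743 genes, including 98.8% of the 2266, and 1209 for the species difference. Library totals gave 3438 genes (79.1% higher in section 5, against 55.8%), a test against a 2-fold change 554, an adjusted p under 0.01 842, and all 30 libraries in the fit 5562. Without H. burtoni 556 and without L. attenuatus 1134 genes were called, from fewer fish. Leaving out single fish gave 1153 to 2607 genes, and 0 to 3936 for the species difference, which no filter raised to 323. For the species difference, a fit without a fish cannot measure the spread within its species, so no conclusion is drawn from those counts. At an adjusted p under 0.01, the genes higher in section 5 took 14.4% of counts in section 5 and 1.35% in section 1, and the lower genes 0.968% in section 5, against 21.2%, 3.91% and 3.48%. The changes of the 4 gene IDs kept their direction and call in all 18 alternatives. These IDs were picked for a small p and a shared direction in the same libraries, which makes this likely. Their changes ran from 5.95 to 6.41 for gene ID 102082895, 8.01 to 8.49 (100693193), -3.69 to -3.21 (100709595) and -2.74 to -2.35 (100706024). Alternatives for the middle sections and whole-library measures, added after seeing the data, moved each by less than its spread or kept its direction. With 6 fish, 1390 fitted changes of at least 2-fold did not pass.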
